A study of Homo sapiens with 10 samples.

Results

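Direct target genes of YAP1 and its TEAD partners were read in the established human bile duct cancer line HuCCT1, on 5 Affymetrix arrays of cells with a vector labelled YAPS94A and 5 arrays of cells with an empty vector. The list held 10 genes, CCN1 (formerly CYR61), CCN2 (formerly CTGF), ANKRD1, AXL, NT5E, RBMS3, MYOF (formerly FER1L3), CRIM1, F3 and NUAK2, and every probe set annotated with 1 symbol among them was taken. This gave 24 of the 54675 probe sets on the array, for 9 of the 10 genes. The array's probe set for NUAK2, a kinase related to AMPK, is annotated with a second gene as well, so NUAK2 has no value here. Sample labels and series title name the substitution S94A, whereas the design text names S127A and calls the protein constitutively active. The vector is called here by its sample label, since the expression values cannot settle which substitution was present. Both groups were grown in the same medium, and the design text gives transfection as the route. Whether the 5 arrays per vector stand for independent cultures, and whether the cells were a pool or a clone, is stated by no label used here. The p-values therefore measure array-to-array spread that may be technical only.

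YAP1 co-activates transcription, and kinases of the Hippo pathway keep it out of the nucleus by phosphorylating it, including at the serine that S127A removes. It does not bind DNA by itself and reaches its targets mainly through the TEAD transcription factors, and S94A is a substitution in the TEAD-binding part of YAP1 that is known to weaken that contact. CCN1, CCN2 and ANKRD1 are the most widely used readouts of YAP1 with TEAD, and the other genes recur among YAP1 targets in epithelial tumours.

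TEAD factors are known to bind the sequence GGAATG, read as CATTCC on the other strand. RefSeq (GRCh38.p14) promoter windows, 250 bases before to 50 after an annotated start, were at hand for 8 of the 10 genes, and those of CCN1 and CRIM1 were not used. Only windows of genes with a value here are shown. Those of CCN2 and ANKRD1 were chosen because they hold the motif more than once, and those of RBMS3 and NT5E because these genes had the largest rises. They lie at chr6:131951323-131951622 (minus strand) for CCN2, chr10:90921038-90921337 (minus strand) for ANKRD1, chr3:29280821-29281120 (plus strand) for RBMS3 and chr6:85449833-85450132 (plus strand) for NT5E. Each is printed 5′ to 3′ on the gene's strand, with the motif in capitals.
CCN2: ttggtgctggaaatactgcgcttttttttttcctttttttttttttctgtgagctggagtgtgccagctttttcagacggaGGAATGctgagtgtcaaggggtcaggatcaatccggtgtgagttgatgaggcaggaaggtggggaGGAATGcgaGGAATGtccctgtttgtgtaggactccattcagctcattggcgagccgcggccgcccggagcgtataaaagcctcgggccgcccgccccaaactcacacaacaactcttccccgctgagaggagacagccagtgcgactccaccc
ANKRD1: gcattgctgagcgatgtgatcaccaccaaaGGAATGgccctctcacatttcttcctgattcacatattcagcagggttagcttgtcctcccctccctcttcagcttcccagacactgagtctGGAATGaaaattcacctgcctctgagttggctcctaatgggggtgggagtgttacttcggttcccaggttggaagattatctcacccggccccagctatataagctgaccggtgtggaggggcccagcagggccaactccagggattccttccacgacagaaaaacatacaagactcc
RBMS3: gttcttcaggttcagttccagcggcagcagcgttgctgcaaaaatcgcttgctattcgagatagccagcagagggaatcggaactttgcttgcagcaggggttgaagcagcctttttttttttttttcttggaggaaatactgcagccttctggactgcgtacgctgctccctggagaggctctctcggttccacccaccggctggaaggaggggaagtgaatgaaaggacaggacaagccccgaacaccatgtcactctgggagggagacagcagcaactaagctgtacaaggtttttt
NT5E: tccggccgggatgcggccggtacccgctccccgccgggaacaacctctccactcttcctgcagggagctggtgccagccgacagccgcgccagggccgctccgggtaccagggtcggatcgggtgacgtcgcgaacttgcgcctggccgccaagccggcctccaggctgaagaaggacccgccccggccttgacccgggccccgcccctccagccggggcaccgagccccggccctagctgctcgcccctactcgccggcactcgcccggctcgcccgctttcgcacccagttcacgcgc

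The CCN2 window held GGAATG 3 times on the gene's strand, with first bases at -169, -104 and -95 from the start, none overlapping. ANKRD1 held it 2 times, at -220 and -128. Over all 35116 windows of the table, 14.03% held the motif on either strand at least once, 1.37% held it at least 2 times and 0.128% at least 3 times. NUAK2 also held 2 copies, at -197 and -18, on opposite strands. One of the 2 windows of AXL held a single copy, at -212. The letters were not in the windows of NT5E, RBMS3, MYOF and F3. Of 8 other target genes with a window, 5 held the motif. A match describes the letters in these windows and is no evidence of binding in these cells.

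**Figure D1:**
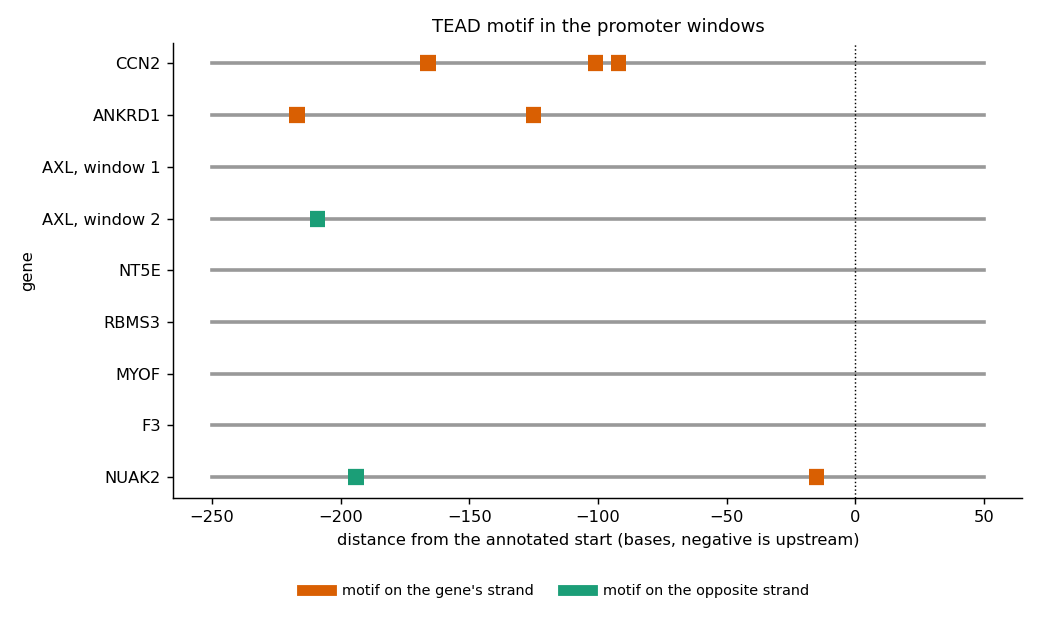
Positions of GGAATG and its reverse complement CATTCC (coloured marks) in the promoter windows (grey lines) of the genes with a window, against the distance from the annotated start in bases, negative upstream. CCN2 has 3 marks and ANKRD1 and NUAK2 have 2 each, while NT5E, RBMS3, MYOF and F3 have none.

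Probe set values are the deposited log2 signals, on which a difference of 1 is a 2-fold change. YAP1 itself was higher with the construct, by 0.52 ± 0.11 log2 units (SE) on its brightest probe set, and 3 of 3 YAP1 probe sets passed the test (limma over all probe sets, adjusted p = 0.0038, 0.0012 and 2.12e-05). The 30 nearest genes of YAP1 on chromosome 11 with a level above the median gene had a median difference of 0.26. YAP1 was at 0.26 relative to that median. Of the 24 probe sets of the target genes, 11 were higher, 3 were lower and 10 did not pass at an adjusted p of 0.05. Over all 54613 probe sets tested, 28.6% passed, 13.9% higher and 14.7% lower. The groups did not overlap on 11 of the 24, against 23.0% of all probe sets. By gene, read at the probe set with the highest mean, RBMS3, NT5E and MYOF rose, CCN2 fell and CCN1, ANKRD1, AXL, CRIM1 and F3 did not pass. That is 4 of 9 genes (44.4%), against 34.4% of all 19775 genes read the same way (17.8% higher and 16.6% lower), so the share is close to that of the array. The groups did not overlap on the same number, 4 of 9 genes, against 29.1% of all genes. The median difference of the 9 genes was 0.14, against -0.0038 over all genes. Without the arrays numbered 1 and 2 of both vectors, a setting chosen after seeing the data, 4 genes were higher and 2 lower.

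**Figure D2:**
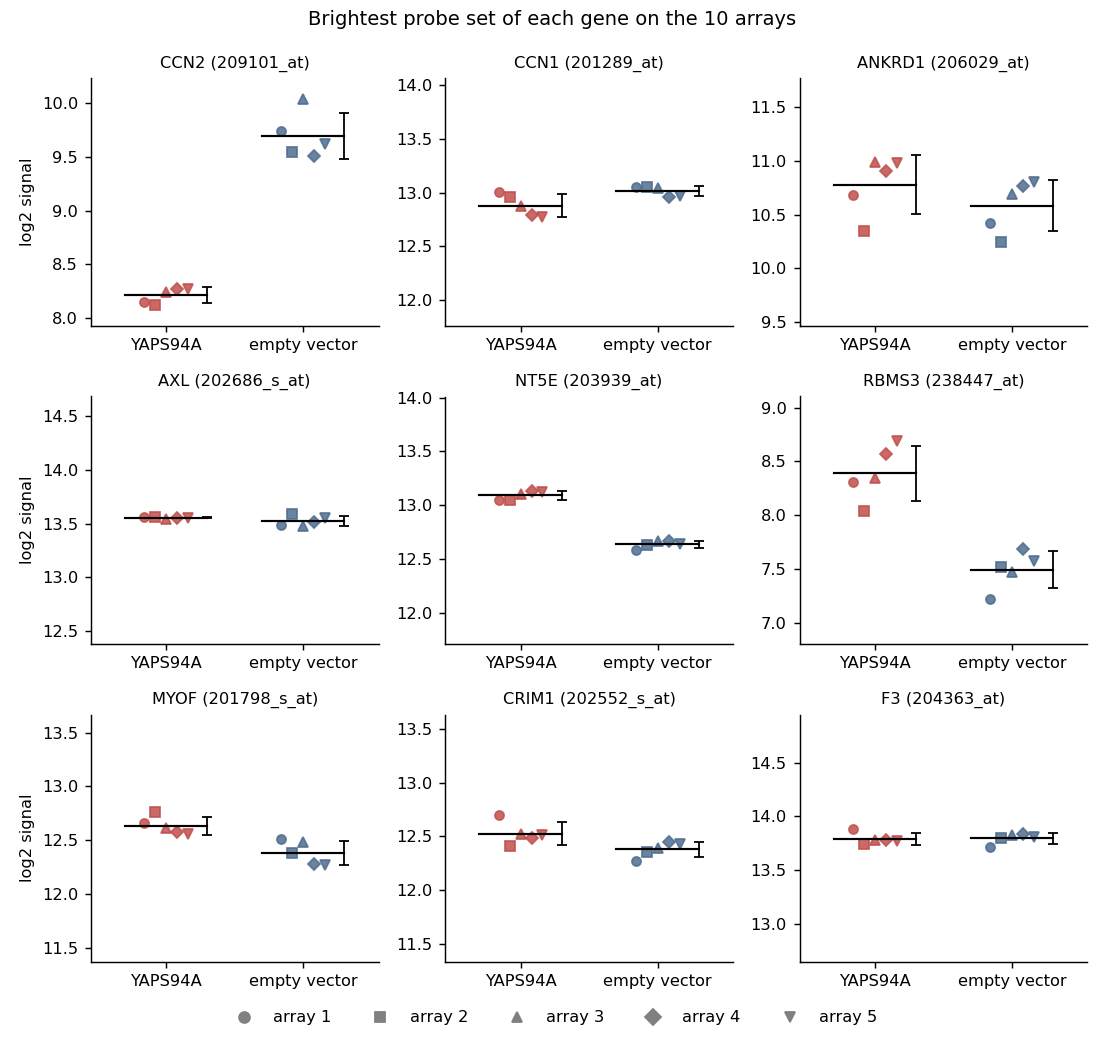
Log2 signal (vertical axes, all spanning the same range) of the brightest probe set of each of the 9 genes on the YAPS94A arrays (red) and the empty vector arrays (blue), with marker shape giving the array number, a line at the mean and a bar of 1 SD (n = 5 each). CCN2, NT5E, RBMS3 and MYOF show separated groups, while the other genes overlap.

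CCN2 encodes a secreted matricellular protein and is the standard readout of YAP1 activity, and it was the only one of the 9 genes whose brightest probe set fell past the test. Its probe set read 8.15, 8.12, 8.25, 8.27 and 8.27 on the YAPS94A arrays, against 9.74, 9.55, 10.04, 9.51 and 9.62 on the empty vector arrays. The groups lay far apart, and the arrays of the construct were closer together (8.21 ± 0.07, SD, n = 5) than those of the empty vector (9.69 ± 0.22, SD, n = 5). The difference was -1.48 (95% interval -1.68 to -1.28), a 2.79-fold decrease, with a limma adjusted p of 2.04e-07. An exact two-sided permutation test over the arrays gave 0.0079, the smallest that 5 against 5 allow. Across the array, 126 of 19775 genes, CCN2 among them, were lower by this much or more. CCN2 lies on chromosome 6 among genes that were mostly lower. Of the 30 nearest genes with a level above the median gene, 1 had a difference above 0, and their median was -0.35. Relative to that median CCN2 was at -1.13 and still passed.

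CCN1 encodes the closest relative of CCN2 and moved the same way by much less. Its brightest probe set read 13.00, 12.96, 12.88, 12.79 and 12.77 on the YAPS94A arrays, against 13.06, 13.05, 13.05, 12.96 and 12.97 on the empty vector arrays. The groups overlapped at 12.96 to 13.00, and the difference of -0.14 (95% interval -0.25 to -0.023) did not pass (limma adjusted p = 0.073). It passed without YAPS94A array 1 (limma adjusted p = 0.031) and with no other single array left out, where the limma adjusted p reached 0.17. The second CCN1 probe set read 12.69, 12.71, 12.63, 12.61 and 12.59 on the YAPS94A arrays, against 12.93, 12.87, 12.94, 12.77 and 12.85 on the empty vector arrays. There the groups did not overlap, and the fall of 0.23 ± 0.045 (SE), or 1.17-fold, passed (limma adjusted p = 0.0023). Both probe sets were lower in 5 of 5 pairs of same-numbered arrays. No label states a pairing by number, here or for the genes below. The 95% interval of CCN2 did not overlap that of either CCN1 probe set, and the difference between the genes was not itself tested.

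ANKRD1, a nuclear and sarcomeric ankyrin repeat protein, did not pass the test. It read 10.68, 10.35, 10.99, 10.90 and 10.98 on the YAPS94A arrays, against 10.42, 10.25, 10.69, 10.76 and 10.80 on the empty vector arrays. The arrays numbered 1 and 2 were the lowest of both vectors, and the groups overlapped over most of their range. The difference was 0.20 with a 95% interval of -0.11 to 0.50 (limma adjusted p = 0.36). With 1 array left out it ranged from 0.11, without empty vector array 2, to 0.30, without YAPS94A array 2, and did not pass. It was 0.21 without the arrays numbered 1 and 2, where it passed (limma adjusted p = 0.020). The interval lies wholly above that of CCN2, the other measured gene with more than 1 motif in its window. ANKRD1 was higher in 5 of 5 pairs of same-numbered arrays. With the array number added to the fit as a block it passed (limma adjusted p = 0.0090), though no label states a pairing. With the sign of RNA integrity described below as a covariate, ANKRD1 was at 0.12 and did not pass (limma adjusted p = 0.29).

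AXL and NT5E encode proteins of the cell surface. AXL, a receptor tyrosine kinase that binds GAS6, read between 13.55 and 13.56 on the YAPS94A arrays, against 13.48 to 13.59 on the empty vector arrays. All YAPS94A values lay inside the empty vector range, and the difference was 0.030 (95% interval -0.046 to 0.11, limma adjusted p = 0.60). Its second probe set read 10.73, 10.99, 10.59, 10.57 and 10.51 on the YAPS94A arrays, against 10.80, 10.69, 10.67, 10.46 and 10.40 on the empty vector arrays. The groups overlapped, and the difference of 0.074 did not pass (limma adjusted p = 0.66). This value became -0.0047 without YAPS94A array 2.

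NT5E, known as CD73, converts extracellular AMP to adenosine, and its probe sets moved in opposite directions. The brightest read 13.05, 13.04, 13.10, 13.14 and 13.12 on the YAPS94A arrays, against 12.59, 12.63, 12.66, 12.67 and 12.64 on the empty vector arrays. The groups were narrow and did not overlap, with a rise of 0.45 ± 0.036 (SE), or 1.37-fold (limma adjusted p = 1.78e-06). Another 2 probe sets rose by 0.57 and 0.51, each with groups that did not overlap. The third brightest probe set instead read 9.63, 10.00, 9.49, 9.40 and 9.37 on the YAPS94A arrays, against 10.42, 10.43, 10.07, 9.92 and 9.95 on the empty vector arrays. YAPS94A array 2 reached into the empty vector range, and the arrays numbered 1 and 2 were the highest of both vectors. The fall of 0.58 ± 0.14 (SE) passed (limma adjusted p = 0.0075) and was found in 5 of 5 pairs of same-numbered arrays.

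The signal of the 3′ over the 5′ control probe sets for GAPDH and ACTB, a sign of RNA integrity, was 0.45 to 0.82 log2 units on the YAPS94A arrays and 0.48 to 0.85 on the empty vector arrays, and was highest on the arrays numbered 1 or 2 in each vector. With it as a covariate, the third brightest NT5E probe set was at -0.50 (limma adjusted p = 6.66e-05) and the brightest NT5E probe set at 0.44 (limma adjusted p = 5.99e-07). The NT5E probe sets also differed in direction with this term in the fit, and the part of RNA integrity in this was not tested. Which transcripts each probe set reads was not tested.

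**Figure D3:**
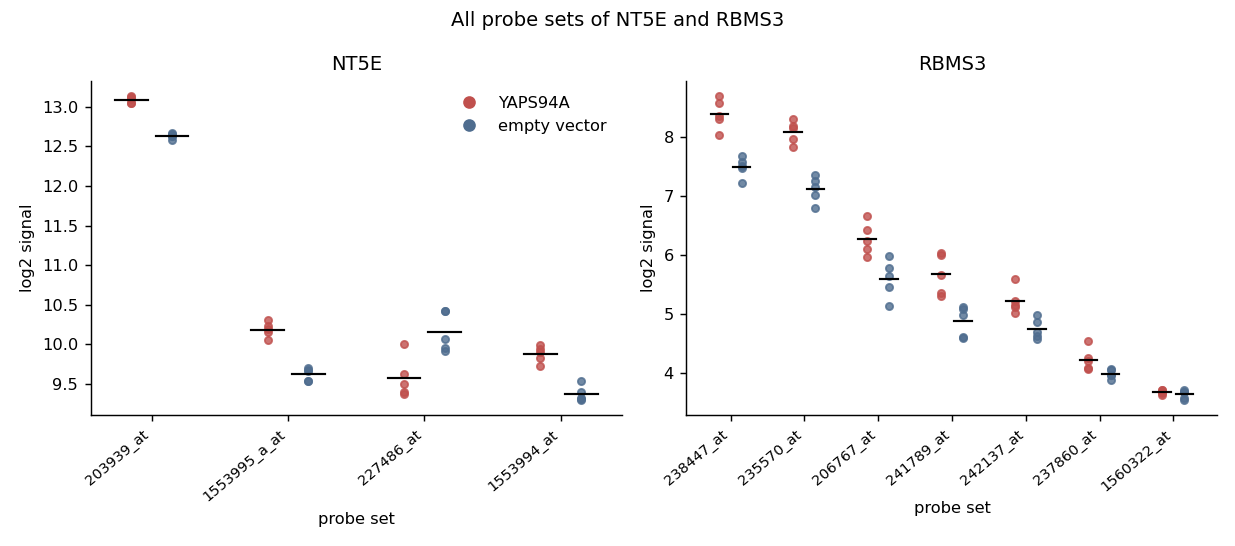
Log2 signal (vertical axes) of each probe set of NT5E (left) and RBMS3 (right) on the 5 YAPS94A arrays (red) and the 5 empty vector arrays (blue), with lines at the means. For NT5E 3 probe sets were higher with the construct and the third brightest was lower, and for RBMS3 the 6 brightest were higher.

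RBMS3, which encodes an RNA-binding protein with RNA recognition motifs, had the largest rise of the 9 genes. The brightest of its 7 probe sets read 8.31, 8.04, 8.35, 8.57 and 8.69 on the YAPS94A arrays, against 7.22, 7.51, 7.48, 7.68 and 7.58 on the empty vector arrays. The groups did not overlap, and the rise was 0.90 ± 0.12 (SE), or 1.86-fold (95% interval 0.64 to 1.16, limma adjusted p = 0.000125). Across the array 489 of 19775 genes, RBMS3 among them, were higher by this much or more. The second probe set rose by 0.98 ± 0.11 (SE), and 3 more rose by 0.68, 0.80 and 0.47. The sixth, at 0.24 (limma adjusted p = 0.046), lost its call when any 1 of 8 of the arrays was left out, the exceptions being YAPS94A arrays 2 and 4. It averaged 4.23 on the YAPS94A arrays and 3.99 on the empty vector arrays, below 4.74, the lower quartile of probe set means. The dimmest was at 0.041 and did not pass (limma adjusted p = 0.54).

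MYOF encodes myoferlin, a membrane protein of the dysferlin family that acts in membrane fusion and repair. It rose modestly, with 12.66, 12.77, 12.61, 12.58 and 12.56 on the YAPS94A arrays, against 12.51, 12.38, 12.48, 12.28 and 12.27 on the empty vector arrays. The lowest YAPS94A array lay just above the highest empty vector array, and the rise was 0.25 ± 0.060 (SE), or 1.19-fold (limma adjusted p = 0.0077). The second probe set rose by 0.27 ± 0.046 (SE). A dimmer one (7.65 ± 0.09 on the YAPS94A arrays and 7.62 ± 0.08 on the empty vector arrays, SD, n = 5 each) was at 0.031 and did not pass (limma adjusted p = 0.75). It is the only MYOF probe set whose identifier lacks the _s_at suffix, which marks probes shared by several transcripts. The rise thus rests on probe sets with that suffix, which the second CCN1 probe set carries as well.

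CRIM1, a transmembrane protein that binds bone morphogenetic proteins, was higher on all 3 probe sets by 0.13 to 0.21, none past the test. The brightest read 12.70, 12.41, 12.52, 12.48 and 12.51 on the YAPS94A arrays, against 12.27, 12.36, 12.39, 12.45 and 12.43 on the empty vector arrays. The groups overlapped, and the difference of 0.14 had a 95% interval of 0.021 to 0.27 (limma adjusted p = 0.0796). It passed without YAPS94A array 2 (0.17, limma adjusted p = 0.041) and with no other single array left out. Without YAPS94A array 1, the highest of the 10 arrays, it was at 0.10 (limma adjusted p = 0.16). On the dimmest CRIM1 probe set the arrays numbered 1 and 2 read 10.49 and 10.35 with the construct and 10.14 and 10.27 with the empty vector, the lowest values of each vector. All 3 probe sets were higher in 5 of 5 pairs of same-numbered arrays. The other 2 moved by more than the brightest with 1 array left out. The second ranged from 0.070, without empty vector array 1, to 0.20, without YAPS94A array 2, and was at 0.085 without YAPS94A array 5. The dimmest ranged from 0.13, without empty vector array 1, to 0.30, without YAPS94A array 2, and was at 0.14 without YAPS94A array 5.

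F3 encodes tissue factor, the cell-surface trigger of blood coagulation, and read 13.88, 13.74, 13.78, 13.78 and 13.77 on the YAPS94A arrays, against 13.71, 13.80, 13.83, 13.84 and 13.81 on the empty vector arrays. The groups lay on top of each other, with a difference of -0.0069 (95% interval -0.097 to 0.083, limma adjusted p = 0.93). Array 1 was the highest of the YAPS94A arrays and the lowest of the empty vector arrays, and it was the only 1 of 5 same-numbered pairs in which F3 was higher with the construct. The probe set lay at percentile 99.7 of all probe sets by mean signal.

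**Figure D4:**
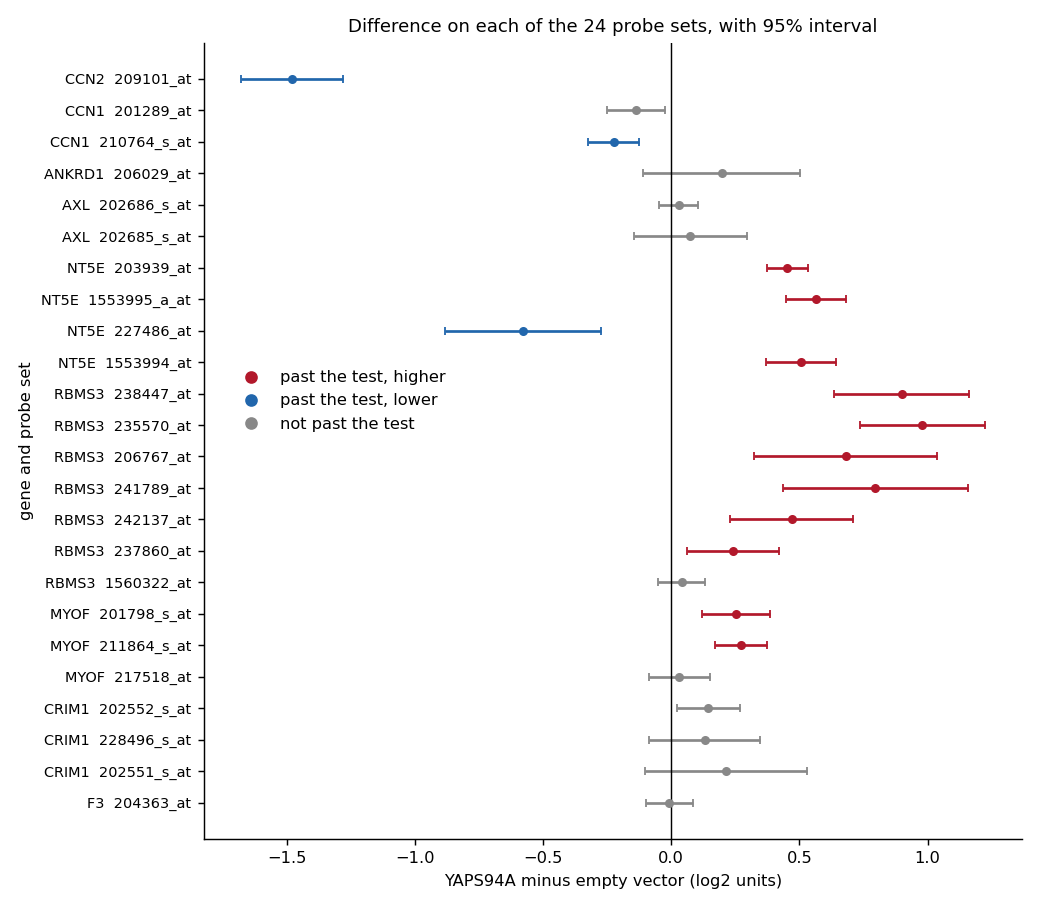
Difference of YAPS94A minus empty vector in log2 units (horizontal axis) with its 95% interval from limma for each of the 24 probe sets, grouped by gene and ordered by brightness within a gene. CCN2 lies at -1.48, apart from all others, and RBMS3 reaches 0.98, while the NT5E probe sets lie on both sides of 0.

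The order of the 9 genes by difference was RBMS3 (0.90), NT5E (0.45), MYOF (0.25), ANKRD1 (0.20), CRIM1 (0.14), AXL (0.030), F3 (-0.0069), CCN1 (-0.14) and CCN2 (-1.48). The 95% intervals of neighbours in this order overlapped throughout, other than RBMS3 with NT5E and CCN1 with CCN2. Outside chromosome 6 the genes lay among neighbours with little net shift. The median of the 30 nearest genes above the median level was between -0.083 and 0.034 for the 7 genes on other chromosomes. It was 0.075 for NT5E, which is on chromosome 6 as well.

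Another 12 genes of the YAP1 and TEAD target repertoire were listed for comparison, and 1 rose and 11 did not pass at their brightest probe set, against 34.4% of all genes past the test. In limma 0 of 12 fell, also at an unadjusted p under 0.05, where AMOTL2, DOCK5 and CCDC80 were higher. Their median difference was 0.083. ARHGEF17 rose by 0.41 ± 0.12 (SE, limma adjusted p = 0.020), among neighbours with a median of 0.25. AMOTL2, a scaffold that binds YAP1, was at 0.083 and LATS2, a kinase that phosphorylates YAP1, at 0.084. The growth factor binding protein gene IGFBP3 was at 0.10 and TGFB2, a growth factor gene, at -0.037. Over all 36 probe sets of these genes 4 were higher and 1 lower, against 28.6% of all probe sets past the test. Besides ARHGEF17, dimmer probe sets of DOCK5 (0.38, limma adjusted p = 0.00012) and CCDC80 (0.26, limma adjusted p = 0.0061) were higher. So was the second probe set of IGFBP3 (0.23, limma adjusted p = 0.016). The lower one was the dimmest of PTPN14 (-0.22, limma adjusted p = 0.011).

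**Figure D5:**
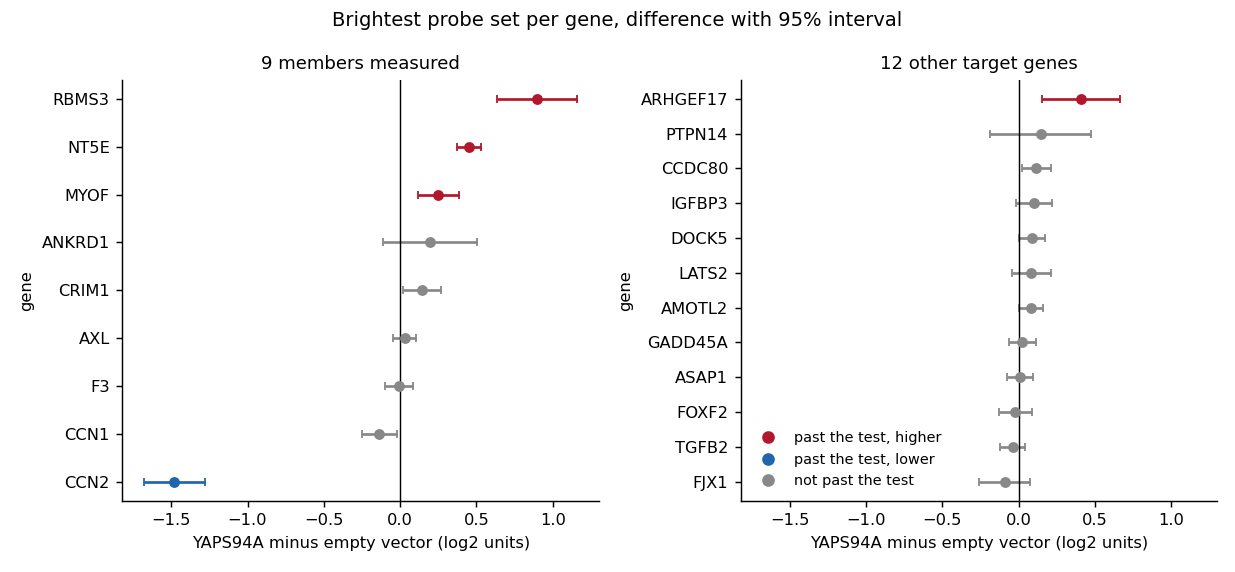
Difference of YAPS94A minus empty vector in log2 units (horizontal axes) with its 95% interval at the brightest probe set of the 9 genes (left) and of 12 other YAP1 and TEAD target genes (right), each ordered by size. CCN2 at -1.48 and RBMS3 at 0.90 mark the ends on the left, and ARHGEF17 at 0.41 is the largest value on the right.

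Among the factors that act on these genes, YAP1, VGLL1 and VGLL4 were higher at their brightest probe set and the other 7 of 10 did not pass. That 3 of 10 passed is close to the 34.4% of all genes that did. Over all 24 probe sets of these factors 7 were higher and 2 lower, against 28.6% of all probe sets past the test. The lower ones were dimmer probe sets of VGLL3 (-0.50, limma adjusted p = 0.0020) and TEAD2 (-0.28, limma adjusted p = 0.013). VGLL1 and VGLL4, cofactors that also bind TEAD, rose by 0.41 ± 0.039 and 0.38 ± 0.040 (SE). VGLL4 lay among neighbours with a median of 0.29. TEAD1 and TEAD4 were at 0.011 and -0.032, and WWTR1 (TAZ), the paralog of YAP1, at 0.13.

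AP-1 factors, which are known to occupy many enhancers together with TEAD, included 2 of 8 that rose, 3 that fell and 3 that did not pass, against 17.8% higher and 16.6% lower among all genes. FOSL2 fell by 0.68 ± 0.078 and JUN by 0.60 ± 0.048 (SE), and all 5 probe sets of FOSL2 and all 4 of JUN were lower past the test. FOSB fell by 0.23. ATF3, a stress-induced member, rose by 1.07 ± 0.042 (SE) and JUNB by 0.20. FOS, FOSL1 and JUND were at -0.046, 0.10 and 0.057.

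Relatives and partners of the 9 genes were read for context, and 6 of 21 rose, 4 fell and 11 did not pass, against the 34.4% of all genes that passed. In the CCN family, CCN3 fell by 0.65 ± 0.054 (SE) with a second probe set at -0.96. CCN6 fell by 0.53, close to the median of its own neighbours (-0.47), and was at -0.060 relative to them. CCN4 and CCN5 were at -0.055 and -0.098 and did not pass, at levels near the lower quartile of signals.

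Of the partners of NT5E, ENTPD1, the enzyme that makes its substrate AMP from ATP, fell by 0.69 ± 0.037 (SE) on the brightest of 4 probe sets, while the other 3 were dim and did not pass. ADORA2B, a receptor for adenosine, rose by 0.28 ± 0.037 (SE). Among the inhibitors of the coagulation step that F3 starts, TFPI rose by 0.23 at its brightest probe set, with 1 of 5 probe sets past the test in the other direction (-0.45). TFPI2, a related protease inhibitor gene, rose by 1.14 ± 0.13 (SE) and by 0.90 on its other probe set.

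MERTK, a receptor kinase of the same family as AXL, rose by 0.41 ± 0.072 (SE), while TYRO3 (0.18) and the ligand gene GAS6 (0.17) did not pass at their brightest probe set. ANKRD2, a muscle relative of ANKRD1, rose by 0.49 and DYSF (dysferlin), a relative of MYOF, fell by 0.30. RBMS1 (-0.041) and RBMS2 (0.053), the paralogs of RBMS3, did not pass at their brightest probe set, and 2 dimmer RBMS2 probe sets rose by 0.18 and 0.16. BMPR2, a receptor for the proteins that CRIM1 binds, rose by 0.41 ± 0.053 (SE) at its brightest probe set. A dimmer BMPR2 probe set rose by 0.32 (limma adjusted p = 0.042). Its other probe sets, at 0.075, 0.10, 0.065 and -0.0045, did not pass. The ligand genes BMP4 (0.24) and BMP7 (0.023) did not pass.

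The spread of a gene over the arrays of one vector was also compared with other genes, using deviations from the vector's mean on the 10 arrays at the brightest probe set. Of 9878 genes above the median level, those most like CCN2 by Pearson's r were KIF18A (0.98), AHCTF1 (0.93), SMCR8 (0.93), SCAF4 (0.91) and ZNF232 (0.91). Those most like ANKRD1 were TNFRSF19, COPS7B, MRE11, COXFA4L3 and ZCCHC14, with r between 0.990 and 0.993. Spearman's rank correlation was 0.83 to 0.92 for the genes like CCN2 and 0.89 to 0.96 for those like ANKRD1. Each set is the top 5 of its ranking and is given as a description with no test, and the 10 arrays are the same in every pair.

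The markers listed for biliary epithelium were bright on the arrays of both vectors, and markers of other epithelia were not read. The biliary list (KRT7, KRT19, KRT8, KRT18, EPCAM, CDH1 and SOX9) averaged between 13.47 and 13.55 per YAPS94A array and between 13.34 and 13.41 per empty vector array. Of its 7 genes, 5 were higher past the test with the construct, against 17.8% of all genes. Of 7 fibroblast markers, 2 were higher, LUM by 2.67 and ACTA2 by 2.21, against the same 17.8% of all genes. The fibroblast list averaged 6.91 to 7.01 per YAPS94A array and 6.22 to 6.38 per empty vector array. The collagen genes COL3A1 (4.60 with either vector, below the lower quartile) and COL1A2 (5.23 with either vector) did not pass. COL1A1 did not pass either, at 8.71 with the construct and 8.83 with the empty vector, above the median level of genes. The part of LUM and ACTA2 in the changes of the target genes was not tested. The 2 leukocyte markers measured averaged 4.76 to 4.89 per YAPS94A array and 4.84 to 4.93 per empty vector array, and the 3 endothelial markers 5.15 to 5.43 and 5.27 to 5.42. In limma 0 of these 5 genes passed, also at an unadjusted p under 0.05.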

How the data were processed

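RNA was isolated on RNeasy columns, amplified and biotin-labelled with NuGEN reagents, and read on Affymetrix arrays, per the labels' protocols. The authors deposited log2 signals of 54675 probe sets, between 2.86 and 14.43, with array medians of 6.25 to 6.28, and how they summarised and normalized them is not given in the sources used. These log2 values were used as deposited. An array signal carries no count, so precision rests on 5 arrays per vector.

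Gene names came from the platform's annotation table (41097 probe sets with 1 symbol, 1801 with several, 11777 with none), and symbols were updated through RefSeq. The 62 control probe sets were left out. YAPS94A and empty vector arrays were set against each other in limma 3.58.1 (R 4.3.3), by lmFit and eBayes with no covariate, two-sided, Benjamini-Hochberg adjusted over the 54613 other probe sets, threshold 0.05. A gene is read at its probe set of highest mean. The neighbour median takes up to 15 genes on each side in chromosome order, among genes with a level above the median gene. The fit recovered shifts placed in simulated data. The members, lists, alternatives and the rule for naming genes (every member, genes of the lists, and the 5 genes most like CCN2 and ANKRD1) were chosen with earlier results of these data known. Alternatives covered normalization, dim probe sets, the variance model, array weights, RNA quality, the array number, each array left out, and other ways to represent a gene.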

Additional observations from a re-analysis of the deposited data

Results flagged for a closer look

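The tissue factor gene F3 read 13.88 on YAPS94A array 1, apart from the other 4 YAPS94A arrays (13.74 to 13.78), a gap of more than Dixon's test allows for 5 values at the 95% level. It was the only such array in 48 groups of 5 (24 probe sets in 2 vectors), where chance alone gives about 1 in 20.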

How the results depend on the processing

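Over the alternatives each could be run in, the 24 probe sets gave 465 comparisons with their value as reported, of which 437 kept direction and side of the threshold. The calls of CCN2, of the 4 NT5E probe sets, of the 5 brightest RBMS3 probe sets, of the second CCN1 probe set and of both bright MYOF probe sets held in every one. At the gene level MYOF no longer passed (0.031, adjusted p = 0.76) when probe sets with the _x_at or _s_at suffix were left out, where only its dim probe set remained. The mean of a gene's probe sets gave 0.24 for NT5E and 0.59 for RBMS3, both still past the test. All 9 lost calls were of the sixth RBMS3 probe set. CCN1, ANKRD1, CRIM1 and the second AXL probe set passed in 14 comparisons where they did not as reported. F3 turned to 0.0012 with arrays centred on the median and to 0.076 relative to its neighbours, and ranged from -0.030 to 0.0059 with 1 array left out. The second AXL probe set ranged from -0.0047 to 0.12 with 1 array left out, and passed with the RNA quality covariate (0.13, adjusted p = 0.014). The number of genes lower was 2 among probe sets above the median level, with the intensity trend, array weights, the replicate block, the RNA quality covariate or the mean of a gene's probe sets, and without the arrays numbered 1 and 2, the second gene being CCN1. With 1 array left out it was 1 or 2, and 3 to 4 genes were higher. Among probe sets above the median level 7 of the genes' probe sets were higher, since dim ones were left out there, and with the suffixed probe sets left out 10194 of all probe sets passed, since fewer were tested. The added alternative, without the arrays numbered 1 and 2, was chosen after seeing the data.

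Deviations of same-numbered arrays correlated at 0.063 to 0.54 over all probe sets and at 0.10 to 0.59 over genes. These correlations were all positive, while 4 of 10 arrays correlated best with their own number. No label states a pairing, so the main fit left the number out, and what same-numbered arrays share was not tested. A replicate block for the number raised the probe sets past the test from 15643 to 18259. With the number as a replicate block, ANKRD1 (adjusted p = 0.0090), the brightest CCN1 probe set (adjusted p = 0.032) and the dimmest CRIM1 probe set (adjusted p = 0.014) passed, and 13 of the 24 probe sets were higher and 4 lower.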
